A study of Mus musculus with 64 samples.

Results

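The right ventricle (RV) of mice that received a Pkp2 vector late was compared with the RV of wild-type (WT) mice. Libraries were chosen by label, as the RV libraries of the late high-dose group (AAV_1E14_2.5wk) and of the WT group given Hanks' balanced salt solution (HBSS). This gave 15 of the 64 libraries of the series, 6 late-dosed and 9 WT, with 1 library per animal by the labels. The 6 late-dosed animals were C57BL6 Pkp2 fl/fl mice with a tamoxifen-inducible Cre recombinase driven by the αMyHC promoter. That promoter is active in cardiomyocytes, so Pkp2 stays intact in the other cells of the heart. They received AAV9:mPkp2, an adeno-associated virus of serotype 9 that carries mouse Pkp2, as 1 intravenous dose of 1e+14 vector genomes per kg, 2.5 weeks after tamoxifen. The 9 WT animals were Pkp2 fl/fl littermates without Cre that received tamoxifen and HBSS as vehicle. Both groups were collected at week 51 after induction. By the study's methods, animals found dead were left out of tissue analyses unless they died right after heart imaging or an ECG, so the late-dosed libraries largely describe survivors. A further 2 RV groups are used for context. Early-dosed animals (AAV_1E14, 5 RVs) had the same genotype and dose, given 1 week before tamoxifen by the labels, and were collected at week 51. The study also describes a dose series of this vector as injected 1 week after the deletion, and whether that is the same experiment is not clear. The cKO animals (4 RVs) had the deletion and HBSS, and were collected earlier than the rest.

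Plakophilin-2, the product of Pkp2, is an armadillo protein of the desmosome, the junction that ties the intermediate filaments of neighbouring cardiomyocytes together at the intercalated disc. In people, loss-of-function variants of PKP2 are the most common genetic cause of arrhythmogenic right ventricular cardiomyopathy, in which cardiomyocytes are lost and replaced by fibrous and fatty tissue. An overloaded or injured ventricle in the mouse switches on a fetal program, with β-myosin heavy chain (Myh7) added to α-myosin heavy chain (Myh6) and natriuretic peptides secreted, while fibroblasts lay down collagen and matricellular proteins. The comparison asks how far an RV treated only after the knockout had been induced still differed from a WT RV about a year later.

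All 12 cardiomyocyte markers were detected, with a summed level of 43275 to 63274 CPM in late-dosed RVs and 37808 to 52706 CPM in WT RVs. After mitochondrially encoded genes had been set aside, 5341792 to 9794753 counts per library remained. Mitochondrially encoded transcripts took 24.4 to 35.6% of counts in late-dosed RVs and 23.7 to 34.4% in WT RVs (exact permutation test over the 5005 ways to divide the 15 libraries, two-sided, p = 0.84). Levels are CPM after TMM scaling, that is, counts scaled to a common library size. A gene is called higher or lower where edgeR's quasi-likelihood test gave a Benjamini-Hochberg adjusted p under 0.05 over all genes tested. Log2 fold changes (log2FC, late-dosed over WT unless stated) are given ± their standard error.

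Some libraries, named here by ventricle and animal number, stood apart. The late-dosed library RV_5814 held 263 CPM of Xist, where the other late-dosed RVs held at most 1.47 CPM or at least 2629 CPM. It also held Y-linked transcripts (298 CPM summed over 4 genes), whereas the left ventricle (LV) library of the same animal held 3064 CPM of Xist and 0 CPM of the Y-linked genes. In its levels of many genes it lay close to library RV_5755 (Pkp2 1908 and 1917 CPM, Nppa 249.9 and 244 CPM), although their counts differed by more than sampling noise (chi-square per gene 16.0, the smallest of the 15 pairs of late-dosed RVs). The WT library RV_5819 carried atrial transcripts, with 143 CPM of Myl4, 59.5 CPM of Myl7 and 27.1 CPM of Sln, whereas the other WT RVs held at most 18.7, 11.2 and 4.61 CPM. Late-dosed library RV_5801 was the lowest library of its group in 22 of the 25 named genes whose log2FC was above 1.5. The 2 groups also differed in a property of the libraries. The effective transcript length that Salmon estimates for each library, averaged over genes and set against all libraries of the series, was -0.029 to -0.019 (log2) in late-dosed RVs and 0.0036 to 0.071 in WT RVs (exact permutation p = 2.0e-04, the smallest that the 5005 divisions can give), with no overlap. In the LV the ranges overlapped, with -0.030 to 0.036 in late-dosed and -0.103 to 0.028 in WT libraries. Since the RV groups do not overlap in this property, its part in the RV differences and that of the treatment cannot be told apart. Main counts are therefore given again with this length as a covariate (the length term). Without overlap that fit has to extrapolate, so a call that passes or fails with the length term does not separate length from treatment.

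**Figure D1:**
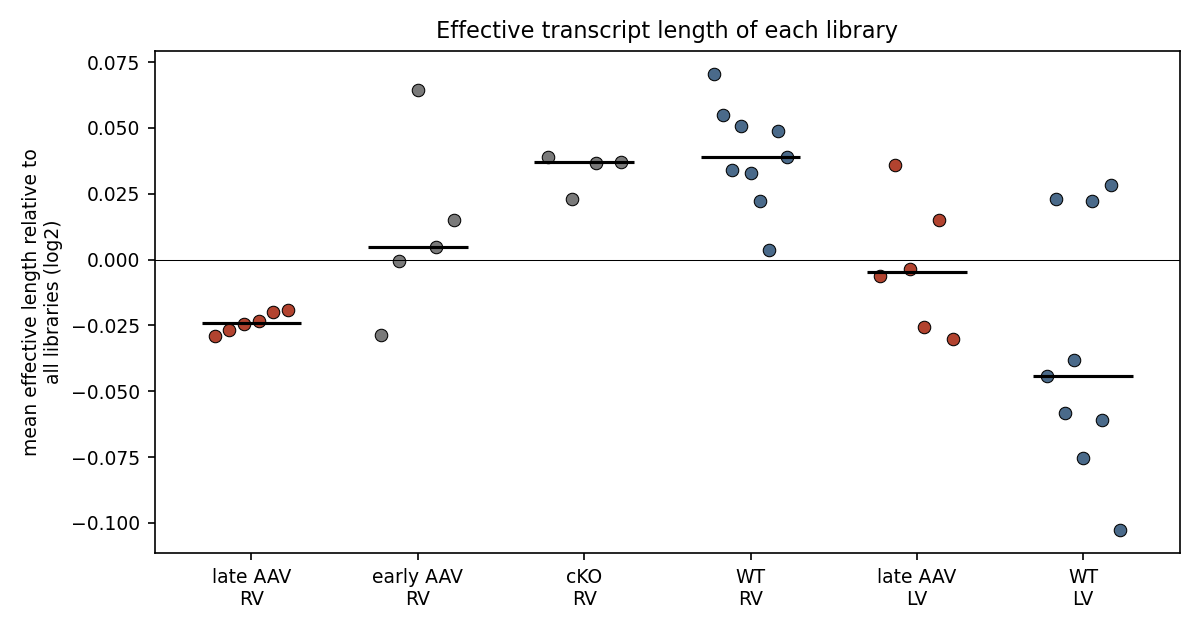
Mean effective transcript length of each library relative to all libraries of the series (y axis, log2), by group, with the group median as a line (late AAV, AAV_1E14_2.5wk; early AAV, AAV_1E14; n = 6, 5, 4, 9, 6 and 9 from left to right). The late AAV RV libraries lie between -0.029 and -0.019, below all WT RV libraries (0.0036 to 0.071), and the 4 cKO RV libraries (0.023 to 0.039) lie within the WT RV range.

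Pkp2 was measured first, as the gene that was deleted and then supplied. Its level was 1917, 1198, 1675, 1060.3, 3804 and 1908 CPM in libraries RV_5755, RV_5801, RV_5806, RV_5807, RV_5810 and RV_5814, against 123 to 185 CPM (median 151) in WT RVs. All late-dosed libraries lay above all WT libraries, at a mean of 1927 ± 987 CPM (SD, n = 6) against 149 ± 20.5 CPM (n = 9). The group difference was as extreme as any division of the libraries (exact permutation test, two-sided, p = 2.0e-04). By edgeR it was log2FC 3.68 ± 0.22, adjusted p = 2.4e-08. The cKO RVs, which had no vector, held 38.7 to 100.1 CPM. Reads from the vector and from the endogenous gene (chromosome 16, 16031144 to 16090586, plus strand, GRCm39) are counted together here, so the level is the sum of both.

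Of 13452 genes tested, 2388 (17.8%) were higher and 2489 (18.5%) lower in late-dosed RVs than in WT RVs, and 808 and 601 of these had groups that did not overlap. Most differences were small: the median absolute log2FC of the called genes was 0.56, and only 291 of the higher and 409 of the lower genes changed more than 2-fold. With the length term 953 genes (7.08%) were higher and 895 (6.65%) lower, of which 719 and 748 were also called without it. List counts below are to be read against these shares of all genes. They are 17.8% higher and 18.5% lower, or 7.08% and 6.65% with the length term. Without the libraries RV_5814 and WT RV_5819 the counts were 1920 and 1999, and with both left out and the length term added 637 and 760. Of the 98 named genes called, 65 passed with the length term, 1 was lost without RV_5814 and 2 were lost without both libraries. On TPM, which divides by transcript length and was not TMM-scaled here, the split moved to 2878 higher and 1388 lower genes (limma-trend on log2(TPM + 1)). With effective lengths as offsets in the TMM-scaled fit it was 2171 and 2185. What moved the split was not tested. Fewer cells of a type and less RNA per cell cannot be told apart in tissue libraries, and this holds for each group of genes below.

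Genes of the cardiac stress list were higher in late-dosed RVs, and of the lists with 10 or more tested members it had the highest median. Of the cardiac stress and natriuretic peptide genes, 18 of 23 tested members were higher and 0 lower (median log2FC 1.53), against the 17.8% of all genes that were higher, and 13 were higher with the length term. Not all of these are cardiomyocyte genes: Cilp, Spp1, Adamts2 and Ctgf, among the 18, encode matrix or secreted proteins, and Cilp is also on the activated fibroblast list. Myh7, the slow β-myosin heavy chain of the fetal heart, was at 5843, 1055, 5418, 7027, 11249 and 5433 CPM in late-dosed RVs (in the order above), against 123 to 390.1 CPM (median 160.2) in WT RVs. Library RV_5801 was the lowest late-dosed library and RV_5819 the highest WT library, and the groups did not overlap (log2FC 5.00 ± 0.38, adjusted p = 7.6e-07). With the length term the difference also passed (log2FC 5.85, adjusted p = 0.0035). Myh6, the adult α-myosin heavy chain, was at 12763 to 20437 CPM (median 14219) in late-dosed RVs, against 11655 to 19894 CPM (median 15412) in WT RVs (log2FC -0.077 ± 0.14, adjusted p = 0.70), and the groups overlapped over most of their range. Myh7b, a related myosin gene, was lower, with 22.04 to 41.4 CPM (median 34.2) in late-dosed RVs, against 50.5 to 195 CPM (median 77.8) in WT RVs (log2FC -1.41 ± 0.27, adjusted p = 8.5e-04), but it did not pass with the length term (log2FC -0.89, adjusted p = 0.36). Mhrt, a long noncoding RNA, is transcribed antisense to Myh7 and overlaps it on chromosome 14. It was among the 10 largest falls, at 4.96 to 28.3 CPM (median 11.1) in late-dosed RVs, against 40.7 to 78.2 CPM (median 55.6) in WT RVs (log2FC -2.11 ± 0.30, adjusted p = 6.6e-05). How the counting treated strand is not given in the sources used here, and without strand reads of the pair cannot be told apart.

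Nppb, which encodes B-type natriuretic peptide, was at 263, 76.4, 115, 212, 201 and 274 CPM in late-dosed RVs, against 4.36 to 43.1 CPM (median 20.8) in WT RVs. The groups did not overlap (log2FC 3.02 ± 0.37, adjusted p = 2.5e-05), and the call passed with the length term (log2FC 3.93, adjusted p = 0.024). Nppa, the atrial natriuretic peptide gene, was at 244, 30.03, 636, 549, 407 and 249.9 CPM in late-dosed RVs, against 3.84 to 426 CPM (median 24.8) in WT RVs. Here the groups overlapped: the WT library with atrial transcripts, RV_5819, was the highest WT library and lay above 4 of the 6 late-dosed ones. Of the late-dosed libraries RV_5801 alone lay within the range of the other 8 WT RVs, which reached 46.8 CPM. The difference passed (log2FC 2.37 ± 0.81, adjusted p = 0.030), did not pass with the length term (log2FC 4.94, adjusted p = 0.22) and was larger without RV_5819 (log2FC 3.95, adjusted p = 9.3e-05). It also missed the threshold when late-dosed RV_5806, late-dosed RV_5807 or WT RV_2040 was left out (adjusted p = 0.066, 0.062 and 0.0501). The summed level of 12 atrial cardiomyocyte markers, Nppa included, was 107 to 784 CPM in late-dosed RVs and 70.5 to 871 CPM in WT RVs (exact permutation p = 0.049, adjusted over the 6 library measures 0.074), and Nppa was the only member called.

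Ankrd1, a titin-associated ankyrin repeat protein induced by stretch, was at 791, 259, 499, 816, 706 and 846 CPM in late-dosed RVs and 54.5 to 172 CPM (median 100.4) in WT RVs. All late-dosed libraries were above the WT range (log2FC 2.77 ± 0.26, adjusted p = 3.1e-06; with the length term, log2FC 2.91, adjusted p = 0.014). Edn3, which encodes endothelin-3, was at 15.5 to 49.7 CPM (median 33.2) in late-dosed RVs, against 2.18 to 9.94 CPM (median 3.91) in WT RVs (log2FC 2.77 ± 0.32, adjusted p = 1.3e-05), again without overlap. Rtn4, a reticulon of the endoplasmic reticulum, was at 163 to 454 CPM (median 344) in late-dosed RVs, against 88.2 to 131 CPM (median 113) in WT RVs (log2FC 1.55 ± 0.15, adjusted p = 4.4e-06). Skeletal α-actin (Acta1), the actin gene that the fetal ventricle uses, was at 170.2, 45.6, 28.2, 66.3, 30.2 and 145 CPM in late-dosed RVs and 3.17 to 39.7 CPM (median 8.27) in WT RVs. It passed without the length term (log2FC 2.24 ± 0.51, adjusted p = 0.0026) and not with it (log2FC 2.97, adjusted p = 0.15), and the highest values were those of RV_5755 and RV_5814.

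Promoters of 4 genes of the stress list that were called higher are printed, chosen because their windows hold the same short motif, as 250 bases before to 50 after the RefSeq start site (RefSeq, build GRCm38.p6). Capitals mark the letters CATTCC on either strand (GGAATG on the printed strand), the core of the M-CAT element that TEAD factors bind. Myh7 (chr14:54994577-54994876, minus strand), Nppb (chr4:147985650-147985949, plus strand), Ankrd1 (chr19:36119795-36120094, minus strand) and Acta1 (chr8:123894726-123895025, minus strand) follow, each 5′ to 3′.
Myh7: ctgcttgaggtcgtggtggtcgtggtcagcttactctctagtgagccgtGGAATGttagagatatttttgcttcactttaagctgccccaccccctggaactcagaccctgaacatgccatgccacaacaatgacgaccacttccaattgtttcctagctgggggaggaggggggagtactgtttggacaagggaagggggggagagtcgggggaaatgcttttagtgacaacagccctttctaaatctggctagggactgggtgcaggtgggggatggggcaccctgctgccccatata
Nppb: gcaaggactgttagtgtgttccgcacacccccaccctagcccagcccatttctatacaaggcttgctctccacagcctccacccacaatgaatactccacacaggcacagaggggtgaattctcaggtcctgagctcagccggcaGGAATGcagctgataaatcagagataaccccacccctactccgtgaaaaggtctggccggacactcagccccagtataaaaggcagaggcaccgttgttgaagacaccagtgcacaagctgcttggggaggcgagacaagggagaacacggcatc
Ankrd1: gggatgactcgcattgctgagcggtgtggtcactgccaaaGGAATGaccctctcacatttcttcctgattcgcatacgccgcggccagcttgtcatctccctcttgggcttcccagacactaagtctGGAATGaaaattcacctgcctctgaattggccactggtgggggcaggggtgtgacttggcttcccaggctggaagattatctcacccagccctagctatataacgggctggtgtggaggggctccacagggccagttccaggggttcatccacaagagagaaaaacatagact
Acta1: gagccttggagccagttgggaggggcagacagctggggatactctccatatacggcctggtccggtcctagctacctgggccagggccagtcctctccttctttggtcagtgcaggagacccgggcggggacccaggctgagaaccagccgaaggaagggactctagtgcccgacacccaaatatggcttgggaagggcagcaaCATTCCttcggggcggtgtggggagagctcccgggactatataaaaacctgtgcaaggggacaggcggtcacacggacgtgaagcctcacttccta
Of the stress list, 25 genes had a promoter window in the RefSeq table and 7 of them (28.0%) held the letters, against 14.7% of all 32851 windows and 16.6% of all genes with a window. The Ankrd1 window held 2 matches and the other printed windows 1 each. The match says only that the letters are there. Tead1, which encodes one of the factors that bind the element, was at 448 to 613 CPM (median 497) in late-dosed RVs, against 146 to 359 CPM (median 226) in WT RVs (log2FC 1.04 ± 0.19, adjusted p = 4.5e-04), a difference that did not pass with the length term (log2FC 0.74, adjusted p = 0.30).

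**Figure D2:**
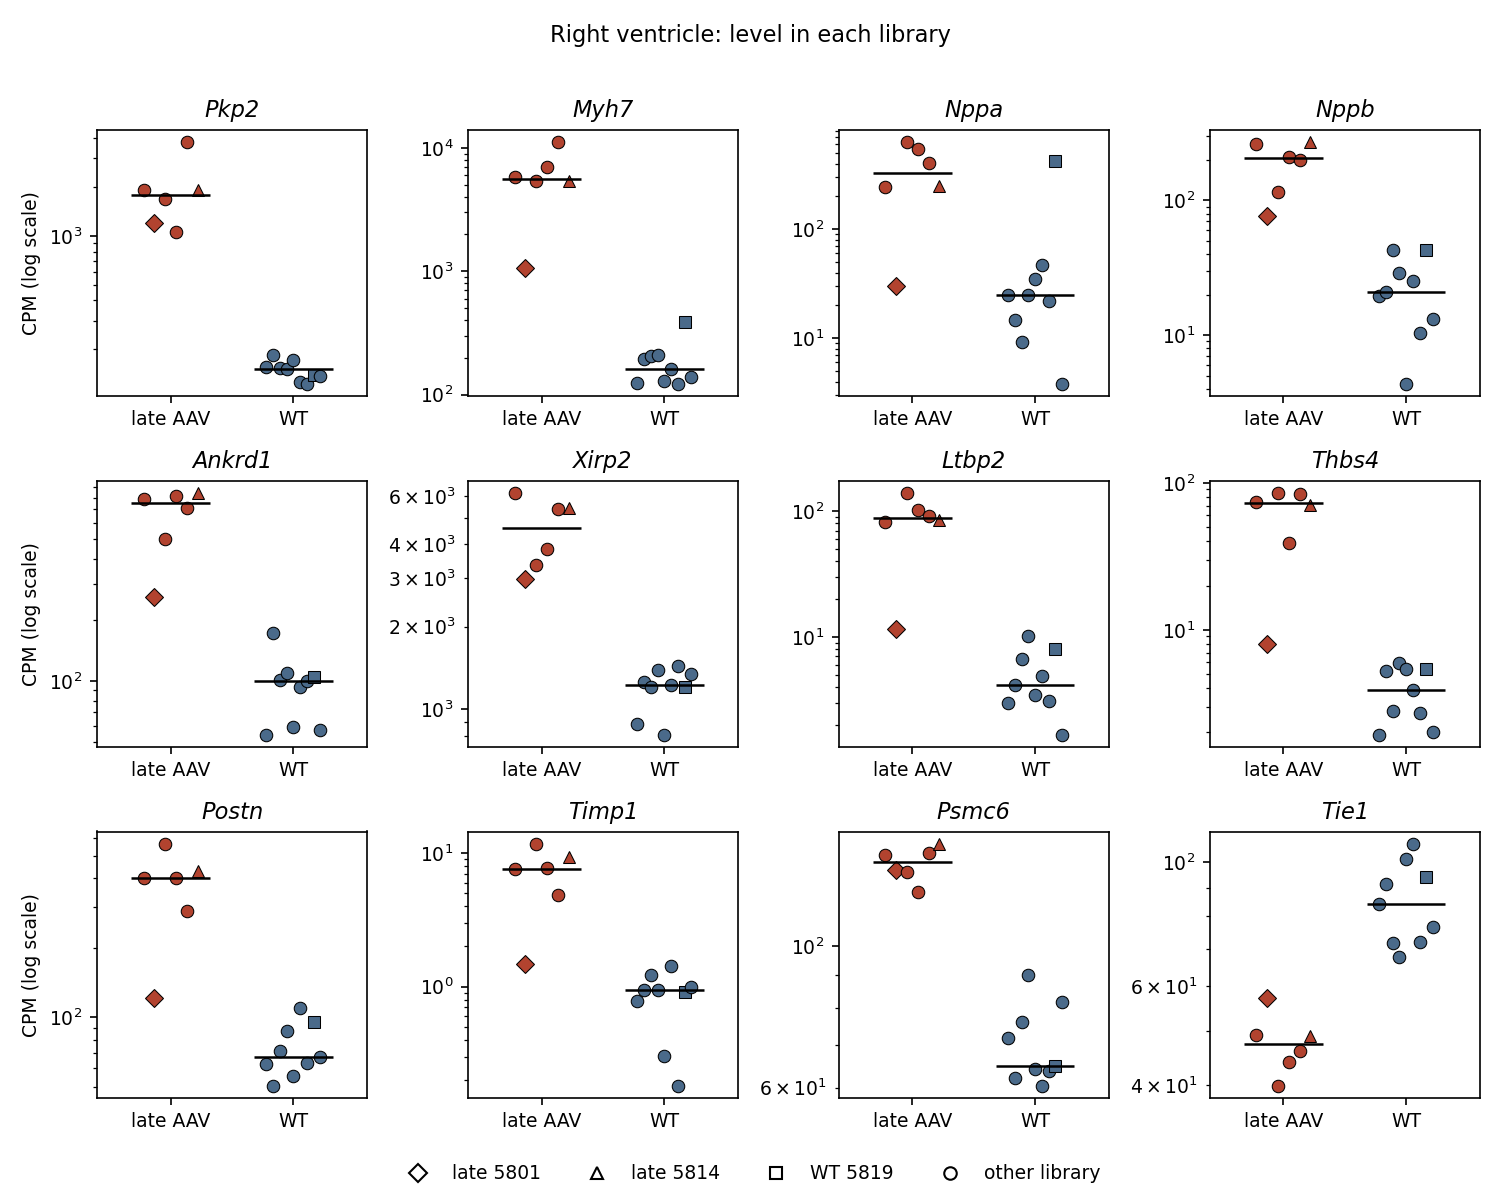
Level of 12 genes in each RV library (y axis, CPM on a log scale), late AAV (AAV_1E14_2.5wk, n = 6) and WT (n = 9), with the group median as a line. A diamond marks late-dosed library RV_5801, a triangle the doubtful library RV_5814 and a square WT RV_5819. For Myh7 the late-dosed libraries lie between 1055 and 11249 CPM and the WT libraries between 123 and 390.1 CPM.

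Sarcomere genes were mostly higher where they passed. Of the thin filament and Z-disc list, 16 of 24 tested members (66.7%) were higher and 2 (8.33%) lower (median log2FC 0.52). With the length term 11 higher and 0 lower were called. Synpo2l, a Z-disc protein that binds α-actinin, was at 161 to 306 CPM (median 243) in late-dosed RVs, against 71.6 to 112 CPM (median 89.5) in WT RVs (log2FC 1.41 ± 0.14, adjusted p = 5.3e-06). Cardiac troponin C (Tnnc1), the calcium sensor of the thin filament, was at 885 to 1377 CPM (median 1161) in late-dosed RVs, against 453 to 732 CPM (median 577) in WT RVs (log2FC 0.93 ± 0.12, adjusted p = 4.0e-05). Myoz2, a calsarcin that anchors calcineurin at the Z-disc, was at 893 to 1087 CPM (median 1064) in late-dosed RVs, against 501 to 826 CPM (median 623) in WT RVs (log2FC 0.70 ± 0.099, adjusted p = 7.1e-05). None of these 3 genes had overlapping groups, and all passed with the length term. Of the thick filament list, 5 of 13 tested members (38.5%) were higher and 2 (15.4%) lower (median log2FC 0.31), and 5 higher and 0 lower with the length term. Myom1, the M-band protein myomesin-1, was at 1648 to 2669 CPM (median 2313) in late-dosed RVs, against 1065 to 1467 CPM (median 1322) in WT RVs (log2FC 0.76 ± 0.10, adjusted p = 3.9e-05).

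Among the desmosomal partners of Pkp2, some were higher and others did not pass. Of the desmosome list, 5 of 9 tested members (55.6%) were higher and 0 lower (median log2FC 0.55), Pkp2 included, and 4 higher and 0 lower with the length term. Desmoplakin (Dsp), which links the desmosomal plaque to intermediate filaments, was at 2066 to 3021 CPM (median 2643) in late-dosed RVs, against 1315 to 1882 CPM (median 1753) in WT RVs, without overlap (log2FC 0.61 ± 0.095, adjusted p = 1.4e-04; with the length term, log2FC 0.93, adjusted p = 0.013). Desmin (Des), the intermediate filament of muscle that attaches there, was at 1080.5 to 1604 CPM (median 1386) in late-dosed RVs, against 539.8 to 1047 CPM (median 788) in WT RVs (log2FC 0.76 ± 0.13, adjusted p = 2.7e-04). Perp, a tetraspan desmosomal protein and p53 target, was at 97.96 to 136 CPM (median 124) in late-dosed RVs, against 49.1 to 92.7 CPM (median 61.6) in WT RVs (log2FC 0.82 ± 0.13, adjusted p = 1.9e-04). The log2FCs of plakoglobin (Jup), desmoglein-2 (Dsg2) and desmocollin-2 (Dsc2) were -0.093 ± 0.090, -0.074 ± 0.091 and 0.16 ± 0.093 and none passed (adjusted p = 0.45, 0.56 and 0.20).

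Of the intercalated disc and gap junction list, 8 of 17 tested members (47.1%) were higher and 2 (11.8%) lower (median log2FC 0.18). With the length term 4 were higher and 0 lower. Xirp2, an actin-binding protein of the disc, was at 6175, 2987, 3360.1, 3829, 5365 and 5444 CPM in late-dosed RVs, against 807 to 1437 CPM (median 1225) in WT RVs. The lowest late-dosed value, that of RV_5801, was above every WT value (log2FC 1.91 ± 0.16, adjusted p = 1.4e-06; with the length term, log2FC 1.6, adjusted p = 0.019). The PDZ-LIM protein Pdlim5 (0.91 ± 0.089), the nebulin-related anchoring protein Nrap (0.76 ± 0.11) and N-cadherin (Cdh2, 0.54 ± 0.088) were also higher on the log2 scale, and Cdh2 did not pass with the length term (log2FC 0.58, adjusted p = 0.082). Connexin 43 (Gja1), the ventricular gap junction channel, was at 839 to 1010.1 CPM (median 948) in late-dosed RVs, against 535 to 821 CPM (median 586) in WT RVs (log2FC 0.53 ± 0.10, adjusted p = 6.8e-04), and it did not pass with the length term (log2FC 0.57, adjusted p = 0.12).

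The ion channel list leaned the other way: 2 of 25 tested members were higher and 9 lower (median log2FC -0.32), against 18.5% of all genes lower. Among the genes called lower, the KATP channel subunit gene Abcc8 was at 16.2 to 28.97 CPM (median 19.1) in late-dosed RVs, against 34.2 to 43.8 CPM (median 37.6) in WT RVs (log2FC -0.84 ± 0.13, adjusted p = 1.5e-04). The T-type calcium channel gene Cacna1g was at 8.93 to 16.9 CPM (median 12.1) in late-dosed RVs, against 19.9 to 32.8 CPM (median 24.7) in WT RVs (log2FC -0.97 ± 0.16, adjusted p = 2.8e-04), and the silent potassium channel subunit gene Kcnv2 was at 5.61 to 20.9 CPM (median 8.66) in late-dosed RVs, against 20.1 to 50.7 CPM (median 30.8) in WT RVs (log2FC -1.61 ± 0.28, adjusted p = 3.1e-04). Kcna4, which carries a transient outward potassium current, was higher, at 10.6 to 16.5 CPM (median 12.6) in late-dosed RVs, against 1.62 to 7.09 CPM (median 4.46) in WT RVs (log2FC 1.59 ± 0.24, adjusted p = 1.1e-04). None of these 4 passed with the length term (adjusted p = 0.052, 0.091, 0.087 and 0.52), with which 1 higher and 0 lower were called in the list.

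Of the calcium handling genes, 8 of 20 tested members (40%) were higher and 3 (15%) lower (median log2FC 0.11). The shares of all genes were 17.8% and 18.5%. Without the libraries RV_5814 and WT RV_5819, 5 calcium handling genes were higher. With the length term 3 higher and 1 lower were called. S100a1, a calcium-binding regulator of the ryanodine receptor, was at 334 to 477 CPM (median 408) in late-dosed RVs, against 206 to 312 CPM (median 238) in WT RVs (log2FC 0.70 ± 0.11, adjusted p = 1.1e-04). Casq2, the calcium buffer of the sarcoplasmic reticulum, had a log2FC of 0.48 ± 0.11 (adjusted p = 0.0020). The IP3 receptor gene Itpr2 and the L-type calcium channel gene Cacna1c were lower (-0.76 ± 0.13 and -0.49 ± 0.10; adjusted p = 2.3e-04 and 0.0012), and Cacna1c did not pass with the length term (log2FC -0.44, adjusted p = 0.22). The genes of the calcium pump SERCA2a (Atp2a2, 0.039 ± 0.13) and of the ryanodine receptor (Ryr2, -0.16 ± 0.093) did not pass (adjusted p = 0.84 and 0.18). Among cardiac transcription factors, 5 of 20 tested members (25%) were higher and 1 (5%) lower, against 17.8% and 18.5% of all genes. Irx5 (log2FC 1.49 ± 0.18, adjusted p = 2.1e-05) and Tbx20 (log2FC 0.85 ± 0.12, adjusted p = 5.6e-05) had the smallest p-values of the 5 that were higher. Both passed with the length term, with which 3 higher and 0 lower were called.

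Matrix and fibroblast genes were the second large group. Of the activated fibroblast and matricellular list, 18 of 24 tested members were higher and 1 lower (median log2FC 1.48), and of the extracellular matrix list 22 of 31 tested members were higher and 0 lower (median log2FC 0.81). With the length term the activated fibroblast list gave 9 higher and 1 lower and the matrix list 3 higher and 0 lower. The summed level of the 8 fibroblast markers was 1941 to 4805 CPM in late-dosed RVs and 1466 to 2453 CPM in WT RVs. Of 8 valve and cartilage markers, 3 were tested and all 3 (Comp, Fmod and Sox9) were higher, with a summed level over the 8 of 19.1 to 138 CPM in late-dosed RVs and 9.04 to 27.8 CPM in WT RVs. Comp and Fmod are also on the fibroblast and matrix lists. The part of a change in cell number, or of valve tissue, in these results was not tested.

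Ltbp2, a latent TGF-β binding protein of the microfibrils, was at 81.6, 11.5, 141, 102, 91.4 and 84.6 CPM in late-dosed RVs, against 1.67 to 10.1 CPM (median 4.18) in WT RVs. Of the late-dosed animals, 5 held 81.6 CPM or more and RV_5801 lay just above the highest WT library (log2FC 4.06 ± 0.41, adjusted p = 4.7e-06; with the length term, log2FC 4.69, adjusted p = 0.021). Thbs4, thrombospondin-4, was likewise lowest in RV_5801, with 74.4, 7.95, 85.7, 39.2, 83.2 and 71.1 CPM in late-dosed RVs and 1.94 to 5.95 CPM (median 3.89) in WT RVs (log2FC 3.92 ± 0.39, adjusted p = 4.4e-06). Comp, cartilage oligomeric matrix protein, a further member of the thrombospondin family, was at 5.74 to 75.3 CPM (median 37.6) in late-dosed RVs, against 0.182 to 6.94 CPM (median 1.87) in WT RVs (log2FC 3.82 ± 0.50, adjusted p = 4.2e-05), with library RV_5801 inside the WT range. Postn, periostin, a marker of activated cardiac fibroblasts, was at 121 to 567 CPM (median 402) in late-dosed RVs, against 50.6 to 109.7 CPM (median 66.97) in WT RVs (log2FC 2.31 ± 0.24, adjusted p = 6.4e-06). Cilp, cartilage intermediate layer protein, was at 28.7 to 218 CPM (median 152) in late-dosed RVs, against 5.56 to 22.996 CPM (median 7.95) in WT RVs (log2FC 3.53 ± 0.39, adjusted p = 9.5e-06). Thbs4, Comp, Postn and Cilp passed with the length term.

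The structural collagens differed less. Col1a1, the α1 chain of type I collagen, was at 172, 53.4, 130.0, 119, 128 and 151 CPM in late-dosed RVs, against 32.9 to 113 CPM (median 46.6) in WT RVs, and library RV_5801 lay among the WT libraries while WT RV_5803 lay near the late-dosed ones (log2FC 1.18 ± 0.25, adjusted p = 0.0017). Col3a1, type III collagen, was at 167 to 571 CPM (median 473) in late-dosed RVs, against 127 to 360.4 CPM (median 161) in WT RVs (log2FC 1.19 ± 0.26, adjusted p = 0.0018). Neither passed with the length term (log2FC 0.39, adjusted p = 0.73 for Col1a1; log2FC 0.49, adjusted p = 0.66 for Col3a1). Col8a1, a short-chain network collagen, was higher without overlap, at 60.5 to 208 CPM (median 180.3) in late-dosed RVs, against 25.9 to 45.3 CPM (median 38.7) in WT RVs (log2FC 2.07 ± 0.20, adjusted p = 3.1e-06), and passed with the length term (log2FC 1.94, adjusted p = 0.022). Lox, the collagen cross-linking lysyl oxidase, was at 15.5 to 51.4 CPM (median 42.4) in late-dosed RVs, against 5.64 to 14.5 CPM (median 9.31) in WT RVs (log2FC 1.93 ± 0.25, adjusted p = 4.1e-05). Its relative Loxl2 had a log2FC of 0.97 ± 0.14 (adjusted p = 1.1e-04) and did not pass with the length term (log2FC 0.92, adjusted p = 0.12). Timp1, an inhibitor of matrix metalloproteinases, was at 7.56, 1.47, 11.8, 7.73, 4.85 and 9.38 CPM in late-dosed RVs and 0.182 to 1.44 CPM (median 0.944) in WT RVs. The lowest late-dosed value and the highest WT value were nearly equal (log2FC 3.00 ± 0.39, adjusted p = 3.9e-05), and the call fell just short with the length term (log2FC 3.60, adjusted p = 0.053).

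The Wnt modulator gene Sfrp2 was at 13.8 to 165 CPM (median 47.9) in late-dosed RVs, against 1.35 to 9.93 CPM (median 5.01) in WT RVs (log2FC 3.59 ± 0.45, adjusted p = 2.5e-05). The osteopontin gene Spp1 was at 1.47 to 11.3 CPM (median 4.796) in late-dosed RVs, against 0 to 1.08 CPM (median 0.387) in WT RVs (log2FC 3.42 ± 0.48, adjusted p = 6.8e-05). The p21-activated kinase gene Pak3 was at 3.24 to 12.4 CPM (median 7.98) in late-dosed RVs, against 0 to 1.44 CPM (median 0.727) in WT RVs (log2FC 3.17 ± 0.40, adjusted p = 2.7e-05). The last 2 rested on few counts, and of the 3 Spp1 alone passed with the length term. Of the TGF-β and BMP signalling list, 11 of 27 tested members (40.7%) were higher and 2 (7.41%) lower (median log2FC 0.26). With the length term 3 were higher and 0 lower. Among the higher genes were the ligands Tgfb3 (1.25 ± 0.16) and Tgfb2 (1.33 ± 0.19) and the follistatin-related Fstl1 (1.35 ± 0.18), with adjusted p between 2.5e-05 and 7.3e-05. Tgfb3 passed with the length term, whereas Tgfb2 and Fstl1 did not.

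**Figure D3:**
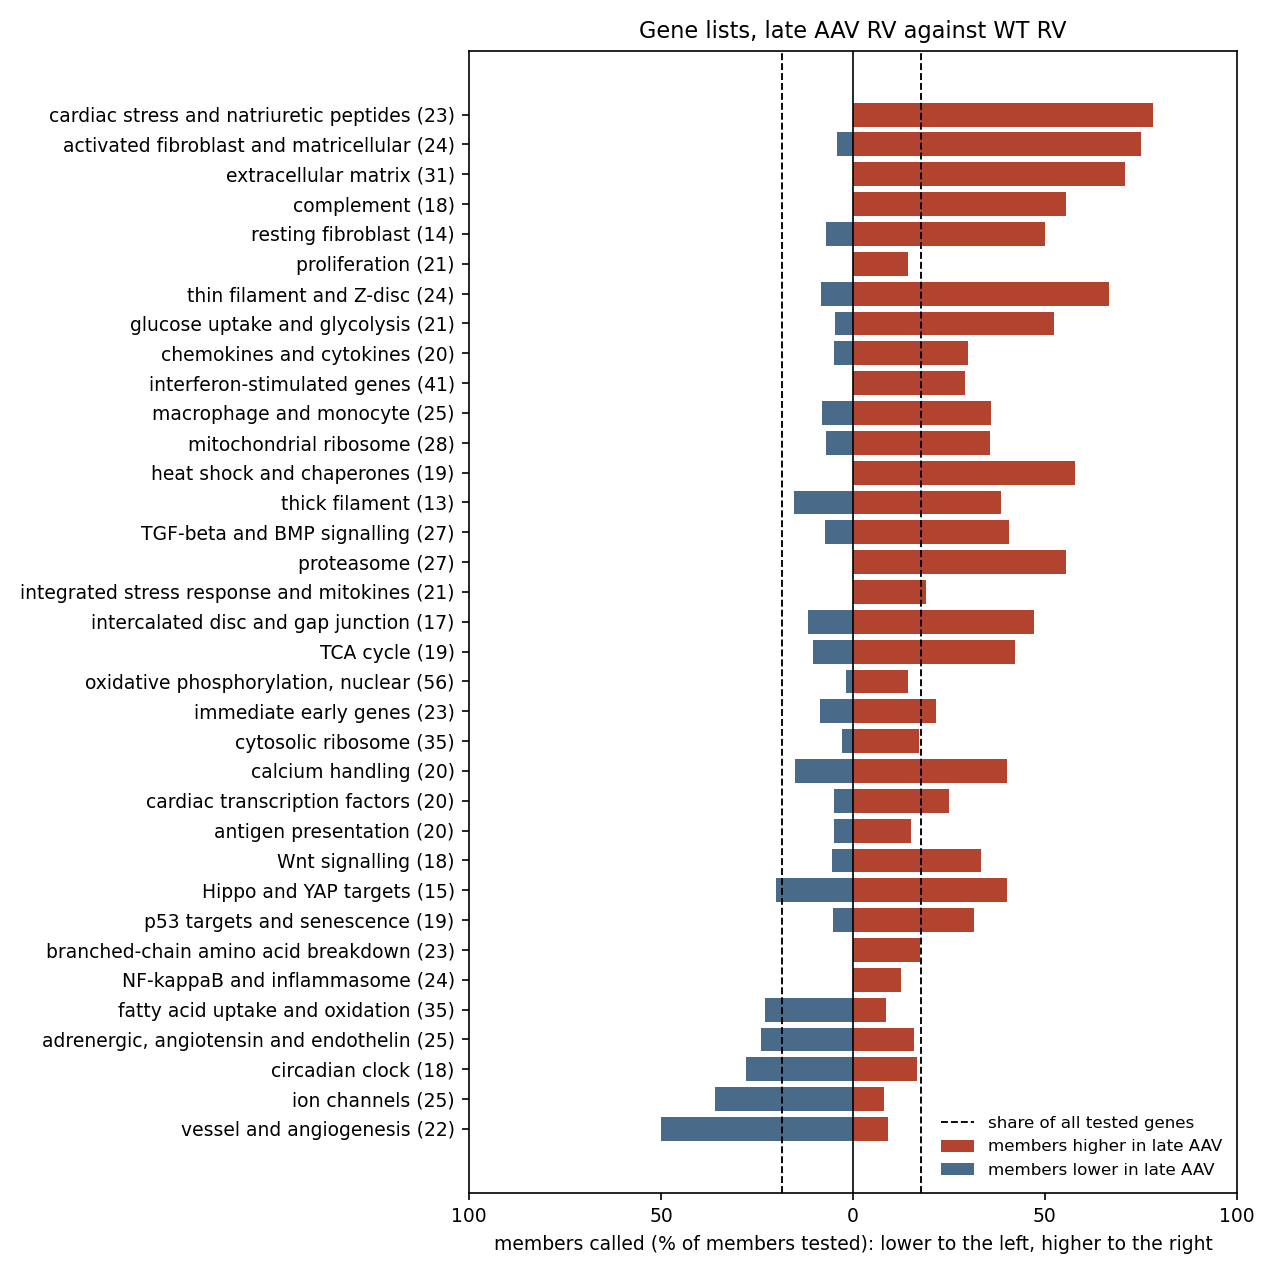
Share of the tested members of each gene list (number in brackets, lists with 10 or more tested members) that were called higher (to the right) or lower (to the left) in late AAV RVs than in WT RVs, ordered by the median log2FC of the list. Dashed lines give the share of all 13452 tested genes, 17.8% higher and 18.5% lower. The stress list (18 of 23 higher) leads, and the vessel list (11 of 22 lower) stands at the other end.

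Immune lists had smaller medians than the matrix lists. Of the complement list, 10 of 18 tested members were higher and 0 lower (median log2FC 0.67). C3, the central component, was at 488 to 1511 CPM (median 857) in late-dosed RVs, against 333 to 546 CPM (median 436) in WT RVs (log2FC 1.05 ± 0.17, adjusted p = 2.1e-04). The C1 inhibitor gene Serping1 was at 124 to 327 CPM (median 197) in late-dosed RVs, against 78.98 to 127 CPM (median 95.3) in WT RVs (log2FC 1.06 ± 0.16, adjusted p = 1.0e-04). Of the macrophage and monocyte list, 9 of 25 tested members (36%) were higher and 2 (8%) lower (median log2FC 0.37). The 7 macrophage markers found summed to 355 to 585 CPM in late-dosed RVs and 289 to 436 CPM in WT RVs. The cysteine protease gene Ctss was at 27.99 to 43.6 CPM (median 40.7) in late-dosed RVs, against 13.2 to 21.1 CPM (median 16.7) in WT RVs (log2FC 1.08 ± 0.14, adjusted p = 2.7e-05), and the lysozyme gene Lyz2 had a log2FC of 0.65 ± 0.14. Of the interferon-stimulated list, 12 of 41 tested members (29.3%) were higher and 0 lower (median log2FC 0.37). Of the antigen presentation list, 3 of 20 tested members (15%) were higher and 1 (5%) lower (median log2FC 0.095), below the 17.8% and 18.5% of all genes. B2m, the light chain of MHC class I and a member of that list, was at 834 to 1360.2 CPM (median 959) in late-dosed RVs, against 418 to 688 CPM (median 621) in WT RVs (log2FC 0.76 ± 0.12, adjusted p = 1.9e-04), and it did not pass with the length term (log2FC 0.34, adjusted p = 0.46). With that term 2 higher and 0 lower were called in the complement list, and none of the macrophage, interferon or antigen presentation list. Tlr4, the receptor for lipopolysaccharide, was higher in both fits (log2FC 0.81 ± 0.089, adjusted p = 1.0e-05; with the length term, log2FC 0.80, adjusted p = 0.028). Only 6 of 23 genes on the lymphocyte list passed the filter on low counts, and 1 of them, Cd3e, was called.

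Vessel genes leaned lower. Of the vessel and angiogenesis list, 2 of 22 tested members were higher and 11 lower (median log2FC -0.55). In addition 11 of 12 endothelial markers were lower, with a summed level of 1892 to 2473 CPM in late-dosed RVs and 2792 to 3657 CPM in WT RVs, without overlap. The same sum was 2019 to 2575 CPM in early-dosed RVs, 2065 to 3305 CPM in late-dosed LVs and 2445 to 2935 CPM in WT LVs. Esam, an endothelial adhesion molecule, was at 23.7 to 28.2 CPM (median 26.4) in late-dosed RVs, against 44.1 to 63.4 CPM (median 48.2) in WT RVs (log2FC -0.95 ± 0.092, adjusted p = 3.8e-06). The endothelial receptor gene Tie1 was at 39.9 to 57.3 CPM (median 47.4) in late-dosed RVs, against 67.8 to 108 CPM (median 84.2) in WT RVs (log2FC -0.85 ± 0.11, adjusted p = 4.7e-05). Tek, its relative and the angiopoietin receptor, was at 77.2 to 93.9 CPM (median 83.4) in late-dosed RVs, against 103 to 158 CPM (median 129) in WT RVs (log2FC -0.60 ± 0.090, adjusted p = 1.1e-04), and neither gene had overlapping groups. Notch1 had a log2FC of -0.69 ± 0.084 and the pan-endothelial markers Pecam1 and Cdh5 had -0.54 ± 0.089 and -0.44 ± 0.13. Esam, Tie1, Tek and Pecam1 passed with the length term, Notch1 and Cdh5 did not (nor did Cdh5 on TPM, log2FC -0.30, adjusted p = 0.11 by limma-trend), and of the whole list 0 higher and 3 lower were then called. The pericyte and smooth muscle markers summed to 2008 to 2745 CPM in late-dosed RVs and 2209 to 3379 CPM in WT RVs, and 3 of 10 tested were lower.

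Of the lists of energy metabolism, glycolysis had the highest share of members called higher: 11 of 21 tested members were higher and 1 lower (median log2FC 0.50), and 11 higher and 0 lower with the length term. Phosphoglycerate mutase (Pgam1), pyruvate kinase (Pkm) and phosphoglycerate kinase (Pgk1) had log2FCs of 0.76 ± 0.12, 0.52 ± 0.087 and 0.65 ± 0.12 and all passed in both fits. Of the fatty acid list, 3 of 35 tested members (8.57%) were higher and 8 (22.9%) lower (median log2FC -0.074), against 17.8% and 18.5% of all genes. With the length term 3 higher and 0 lower were called. The 13 adipocyte markers summed to 478 to 626 CPM in late-dosed RVs and 780.2 to 929 CPM in WT RVs, without overlap. Of the 5 tested, Fabp4 and Lipe were lower. Fabp4 is also among the endothelial markers that were lower, so the adipocyte and endothelial results are not independent. The part of the adipocyte markers in the fatty acid list was not tested. The count lower depended on single libraries (2 without late-dosed RV_5755 or RV_5814, 3 without RV_5806 or RV_5810, 4 without WT RV_2004, 5 without late-dosed RV_5807, WT RV_13, WT RV_2031 or WT RV_5823). Of the nuclear receptor genes on that list, Esrra was lower (-0.58 ± 0.11), though not with the length term, and Esrrg was higher (0.50 ± 0.083), though not with effective lengths as offsets (log2FC 0.24, adjusted p = 0.092). Of the nuclear oxidative phosphorylation list, 8 of 56 tested members (14.3%) were higher and 1 (1.79%) lower (median log2FC 0.14). The share higher was near the 17.8% of all genes, and the share lower was below their 18.5%. With the length term 16 of the 56 were higher and 0 lower, against 7.08% and 6.65% of all genes. Without WT RV_13 or WT RV_2031, 14 were higher. Cytochrome c (Cycs) was at 416 to 665 CPM (median 496) in late-dosed RVs, against 232 to 339 CPM (median 256) in WT RVs (log2FC 0.86 ± 0.11, adjusted p = 4.2e-05). The complex IV subunit gene Cox7c had a log2FC of 0.72 ± 0.13 and did not pass with such offsets (log2FC 0.37, adjusted p = 0.052). Of the TCA cycle list, 8 of 19 tested members (42.1%) were higher and 2 (10.5%) lower (median log2FC 0.18), and 8 higher and 1 lower with the length term. The 2 lower were Idh3b and Mdh1, the gene of a cytosolic enzyme. Among the higher genes was Pdhx (0.54 ± 0.12), a component of the pyruvate dehydrogenase complex. Of the branched-chain amino acid list, 4 of 23 tested members (17.4%) were higher and 0 lower (median log2FC -0.060). The share higher was near the 17.8% of all genes, whereas 18.5% of all genes were lower. With the length term 4 higher and 0 lower were called, against 7.08% and 6.65% of all genes. Among the higher genes of the main fit were Acadsb (0.49 ± 0.095) and Aldh6a1 (0.34 ± 0.12). Neither gene passed with the offsets (log2FC 0.30, adjusted p = 0.085 for Acadsb; log2FC 0.29, adjusted p = 0.084 for Aldh6a1), nor did Aldh6a1 with the length term (log2FC 0.83, adjusted p = 0.064). The call of Aldh6a1 was lost in 8 of the 15 fits that each left out 1 library.

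Protein quality control genes were higher by small steps. Of the proteasome list, 15 of 27 tested members were higher and 0 lower (median log2FC 0.26), and 11 higher and 0 lower with the length term. Psmc6, a subunit of the ATPase ring, was at 122 to 145 CPM (median 135) in late-dosed RVs, against 60.5 to 89.96 CPM (median 64.9) in WT RVs (log2FC 0.92 ± 0.086, adjusted p = 3.0e-06). Psmd12, a lid subunit, was at 83.4 to 100.2 CPM (median 90.1) in late-dosed RVs, against 35.6 to 59.4 CPM (median 53.8) in WT RVs (log2FC 0.78 ± 0.089, adjusted p = 1.4e-05). Of the heat shock list, 11 of 19 tested members were higher and 0 lower (median log2FC 0.32), and 6 higher and 0 lower with the length term. The small heat shock protein gene Hspb1 was at 101 to 136 CPM (median 110.2) in late-dosed RVs, against 38.7 to 70.9 CPM (median 50.2) in WT RVs (log2FC 1.11 ± 0.12, adjusted p = 1.1e-05). Hspa4, an Hsp110-family chaperone gene, was at 236 to 279.6 CPM (median 257) in late-dosed RVs, against 129 to 190.5 CPM (median 152) in WT RVs (log2FC 0.74 ± 0.083, adjusted p = 1.2e-05). These 4 genes passed with the length term. Ccng1, a p53 target, was at 1333 to 1751 CPM (median 1537) in late-dosed RVs, against 741 to 1097 CPM (median 835) in WT RVs (log2FC 0.76 ± 0.11, adjusted p = 8.6e-05).

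Of the proliferation list, 3 of 21 tested members (14.3%) were higher and 0 lower (median log2FC 0.58), against 17.8% and 18.5% of all genes. With the length term 1 higher and 1 lower were called. Ccna2, the S-phase cyclin A2, was at 2.82 to 6.06 CPM (median 4.74) in late-dosed RVs, against 1.21 to 4.61 CPM (median 2.41) in WT RVs (log2FC 0.82 ± 0.27, adjusted p = 0.023), and with the length term its sign turned (log2FC -0.13, adjusted p = 0.91). Of the mitochondrial ribosome list, 10 of 28 tested members (35.7%) were higher and 2 (7.14%) lower (median log2FC 0.32). Of the cytosolic ribosome list 6 of 35 tested members (17.1%) were higher and 1 (2.86%) lower (median log2FC 0.13). The cytosolic share higher was near the 17.8% of all genes, and the share lower was below their 18.5%. The counts with the length term were 8 higher and 1 lower for the mitochondrial and 2 higher and 0 lower for the cytosolic ribosome. In the adrenergic, angiotensin and endothelin list 4 of 25 tested members (16%) were higher and 6 (24%) lower (median log2FC -0.11), against 17.8% and 18.5% of all genes. The count lower was 2 without RV_5814 and 3 without RV_5755 or RV_5806, and with the length term 4 higher and 0 lower were called. In the resting fibroblast list 7 of 14 tested members (50%) were higher and 1 (7.14%) lower (median log2FC 0.63). In the list of Hippo and YAP targets 6 of 15 tested members (40%) were higher and 3 (20%) lower (median log2FC 0.062). Both lists fell to 1 higher and 0 lower with the length term. In each remaining list between 0 and 6 members were higher and between 0 and 5 lower, and between 0 and 2 higher and 0 and 1 lower with the length term. Of tested members, 33.3% of 18 Wnt, 31.6% of 19 p53 and 30% of 20 chemokine genes were higher, against 17.8% of all genes. The shares were 21.7% of 23 immediate early, 19.0% of 21 integrated stress response, 16.7% of 18 circadian clock and 12.5% of 24 NF-κB genes. Lower were 27.8% of the circadian clock and 25% of 4 neutrophil and mast cell genes, against 18.5% of all genes, and at most 8.7% in the others.

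The 10 largest falls without overlap came from several gene classes. Mdh1, the gene of cytosolic malate dehydrogenase, had the largest, at 0.573 to 2.21 CPM (median 1.33) in late-dosed RVs, against 45.2 to 126 CPM (median 60.96) in WT RVs (log2FC -5.70 ± 0.34, adjusted p = 2.4e-08). In other groups its level was 1.36 to 12.3 CPM in late-dosed LVs and 0.42 to 3.03 CPM in WT LVs, 1.40 to 174.6 CPM in early-dosed RVs and 1.07 to 12.7 CPM in cKO RVs. The WT RVs were thus high where the LVs of the same animals were not, and the early-dosed RVs spanned both levels. The level of Mdh1 in the RVs is therefore uncertain, and what set it was not tested. Acsm5, a medium-chain acyl-CoA synthetase gene, was at 0 to 4.29 CPM (median 1.63) in late-dosed RVs, against 7.58 to 18.9 CPM (median 12.97) in WT RVs (log2FC -2.94 ± 0.58, adjusted p = 9.3e-04). The chloride channel gene Clcn1 was at 2.27 to 8.39 CPM (median 4.203) in late-dosed RVs, against 11.8 to 37.4 CPM (median 24.6) in WT RVs (log2FC -2.45 ± 0.27, adjusted p = 1.1e-05). The galectin gene Lgals4 was at 13.9 to 32.98 CPM (median 15.9) in late-dosed RVs, against 53.2 to 185 CPM (median 80.8) in WT RVs (log2FC -2.23 ± 0.27, adjusted p = 1.9e-05), and the cytochrome P450 gene Cyp2b10 was at 0.7896 to 3.83 CPM (median 1.44) in late-dosed RVs, against 4.06 to 11.7 CPM (median 7.08) in WT RVs (log2FC -2.07 ± 0.34, adjusted p = 2.2e-04). Rp1 (-2.12 ± 0.30), the myosin gene Myo5c (-2.05 ± 0.24) and Mtl5 (-1.97 ± 0.33) followed. Hist2h2aa1, a histone H2A gene with a near-identical copy, was listed at 0 in 4 of 6 late-dosed libraries, at a maximum of 21.02 CPM there against 23.6 to 39.6 CPM in WT RVs, so its value is uncertain. Of these 10, with Mhrt, the genes Acsm5, Cyp2b10, Mtl5 and Hist2h2aa1 did not pass with the length term.

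The LV of the same animals allowed a test of whether the difference between the groups was the same in both ventricles. In the LV alone 114 of 13274 genes (0.859%) were higher and 84 (0.633%) lower in late-dosed than in WT animals. The difference of the RV change from the LV change passed for 1504 of 14095 genes (10.7%) in the upward direction and 1088 (7.72%) in the downward direction. By the labels each animal gave both ventricles, and with the animal as a block the counts were 1801 and 1373. Without the RV library RV_5814 the counts were 1293 and 849. Of the 98 named genes called in the RV, 57 differed between the ventricles. This share cannot be set against that of all genes, since up to 10 of the named genes were chosen for small p-values in this test. With the block another 12 of the 98 passed (Timp1, Nrap, Rtn4, Acta1, Lox, Postn, Tgfb3, Itgbl1, Plcg2, C3, Serping1 and Tlr4).

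The named genes fell on both sides of this test. For Pkp2 (log2FC 3.68 in the RV and 3.60 in the LV), Myh7 (5.00 and 4.11), Ltbp2 (4.06 and 3.71), Comp (3.82 and 3.71) and Nppa (2.37 and 3.45) the difference of the changes did not pass (edgeR, adjusted p = 0.89, 0.36, 0.79, 0.94 and 0.52). A p that misses the threshold does not show that the ventricles responded alike. For Nppb (3.02 in the RV and 1.15 in the LV), Ankrd1 (2.77 and 1.44) and Xirp2 (1.91 and 0.64) the rise was larger in the RV (adjusted p of the difference = 0.031, 0.034 and 0.0025).

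Other genes changed in the RV with a smaller change in the LV, mostly of opposite sign. Psmc6 had log2FCs of 0.92 in the RV and -0.18 in the LV, with a difference of 1.13 (adjusted p = 1.5e-05). Its level was 93.3 to 134.6 CPM in late-dosed LVs and 106.8 to 151.7 CPM in WT LVs, so that the WT RVs (60.5 to 89.96 CPM) stood below both sets of LVs and the late-dosed RVs did not. Apart from Mdh1 and Psmc6, the genes with the smallest p-values for the difference were the cofilin gene Cfl2 (1.03 in the RV and -0.11 in the LV), the complex III assembly factor gene Uqcc2 (0.80 and -0.45), Lsm12 (0.67 and -0.13) and the COP9 signalosome subunit gene Cops4 (0.75 and -0.042). Next came the ubiquitin ligase genes Pja2 (0.68 and -0.14) and Rnf13 (0.86 and -0.18), the fucosidase gene Fuca2 (1.41 and 0.22) and Psmd12 (0.78 and -0.25). All of these passed with the length term in the RV. The endothelial genes Esam (-0.95 in the RV and 0.16 in the LV) and Tie1 (-0.85 and 0.15) were lower in the RV, with LV changes of opposite sign. Effective length separated the groups of the RV but not of the LV, and its part in these differences was not tested.

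**Figure D4:**
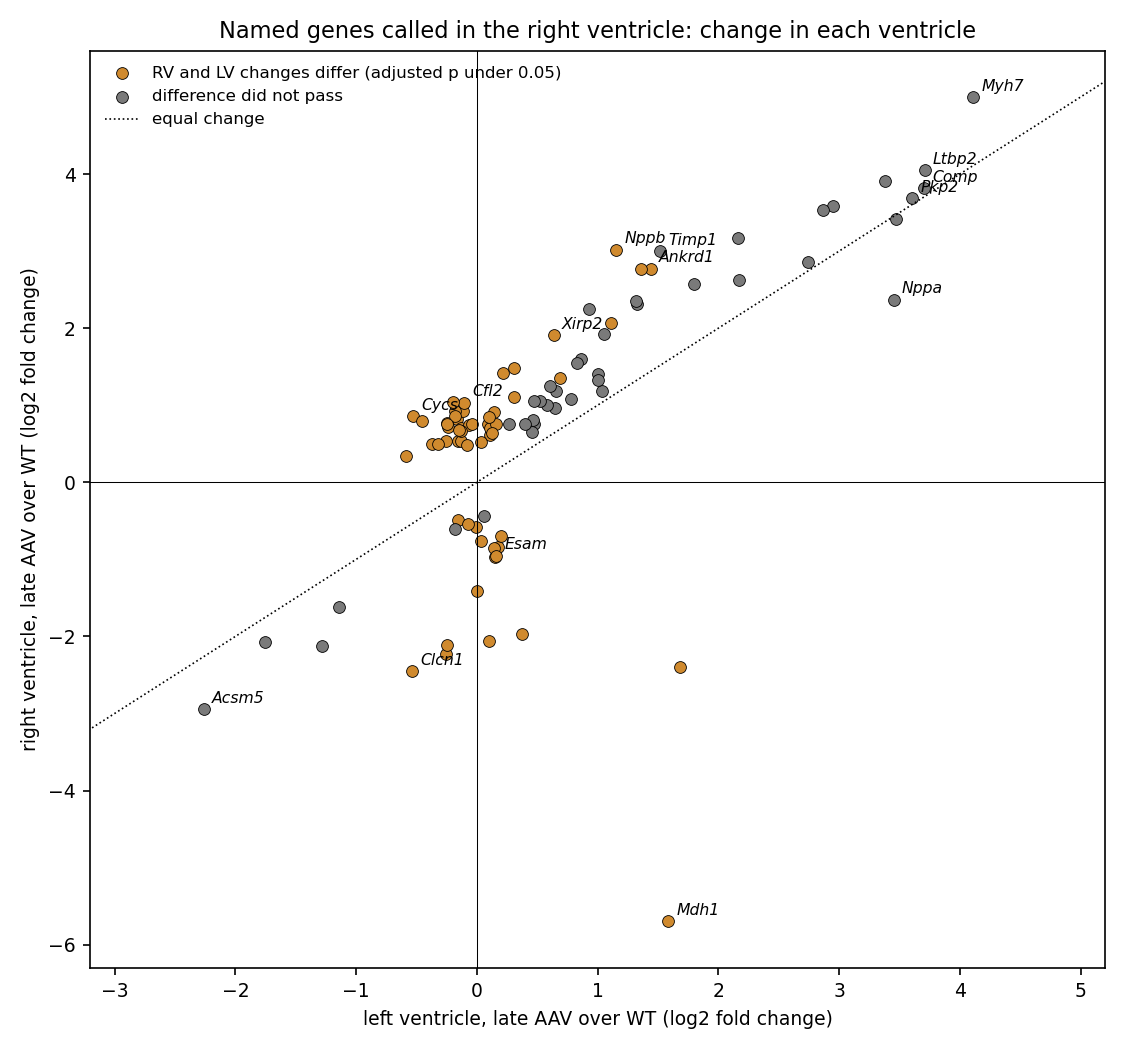
Named genes called in the RV, by their log2FC of late AAV over WT in the LV (x axis) and in the RV (y axis), 1 point per gene, with equal change as a dotted line. Orange points are genes whose RV and LV changes differed in the ventricle by group test of edgeR. Myh7 (4.11 in the LV, 5.00 in the RV) lies near the line, whereas Cfl2 (-0.11 and 1.03) lies near an LV change of 0.

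Late-dosed and early-dosed RVs received the same dose and were collected at the same week, and their comparison does not use the WT libraries. Of 13253 genes, 659 (4.97%) were higher and 524 (3.95%) lower in late-dosed RVs. Of the genes of each list that the table holds, 26 of 32 matrix genes, 18 of 28 activated fibroblast genes and 13 of 27 stress genes were higher and none lower. In the other direction, 18 of 58 oxidative phosphorylation, 14 of 23 branched-chain amino acid and 13 of 35 fatty acid genes were lower and none higher. Of 22 vessel genes 1 was higher and 0 lower, of 27 proteasome genes 0 and 0, and of 19 heat shock genes 1 and 0. Of 23 glycolysis genes 1 was higher and 3 lower, and of 11 desmosome genes 0 and 1. Among the genes also called against WT, the smallest p-values belonged to Cilp (log2FC of late over early 4.03), the integrin-like gene Itgbl1 (2.64), Ankrd1 (2.73), the phospholipase gene Plcg2 (1.07) and Ltbp2 (4.59). They were followed by the NADPH oxidase gene Nox4 (3.01), Comp (4.63), Postn (2.32), fibromodulin (Fmod, 4.68) and the sulfate transporter gene Slc13a4 (3.54), with adjusted p from 0.0025 to 0.0034. Against WT, Nox4, Fmod and Slc13a4 did not pass with the length term. Ltbp2 was at 11.5 to 141 CPM in late-dosed and 1.32 to 5.93 CPM in early-dosed RVs. Pkp2 did not differ past the threshold (0.58, adjusted p = 0.33), and its early-dosed range was 497.0 to 1845 CPM.

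Some genes whose RV and LV changes differed had small log2FCs of late over early. Psmc6 (0.094, adjusted p = 0.47), Cfl2 (0.055, 0.80) and Tie1 (-0.20, 0.35) did not pass, which does not show that their levels were equal. Cfl2 averaged 314 ± 25.5 CPM in late-dosed, 306 ± 61.8 CPM in early-dosed, 95.7 ± 24.4 CPM in cKO and 152 ± 20.9 CPM in WT RVs (SD). With the length term 13 genes were higher and 2 lower in late-dosed RVs. The counts also moved with single libraries: they were 403 higher and 281 lower without late-dosed RV_5814, 365 and 225 without RV_5755, 356 and 237 without RV_5807, 440 and 328 without RV_5810, and 954 and 892 without RV_5801. Without early-dosed RV_2034 they were 448 and 299, without RV_5726 409 and 264, and without RV_5822 399 and 266.

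**Figure D5:**
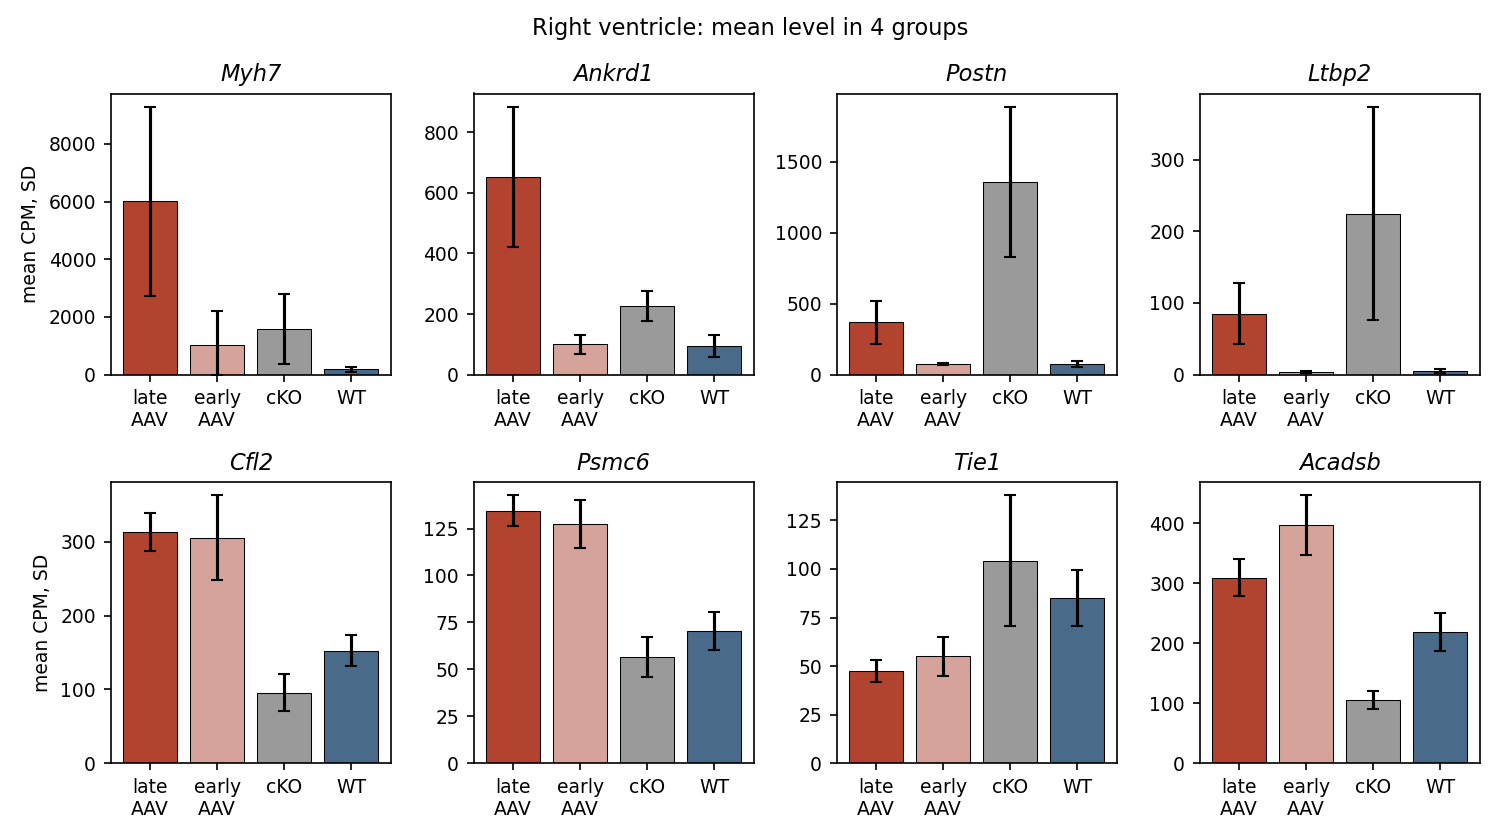
Mean level of 8 genes in late AAV (n = 6), early AAV (n = 5), cKO (n = 4) and WT (n = 9) RVs (y axis, CPM), with bars for the SD, cut at 0 for Myh7 in early AAV. Ankrd1 averaged 653 CPM in late AAV and 99.95 CPM in early AAV RVs, whereas Psmc6 averaged 134 and 127 CPM there and 70.5 CPM in WT RVs.

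The cKO RVs are given side by side with the late-dosed ones, since both are set against the same WT libraries. The cKO hearts were collected earlier, and differences between late-dosed and cKO RVs were not tested. The collagen gene Col1a1 averaged 126 ± 40.1 CPM in late-dosed, 1701 ± 521 CPM in cKO and 54.9 ± 24.3 CPM in WT RVs (SD, n = 6, 4 and 9, here and below). Postn averaged 369 ± 150.3 CPM in late-dosed, 1355 ± 529 CPM in cKO and 73.7 ± 19.6 CPM in WT RVs, and Spp1 5.15 ± 3.48 CPM in late-dosed, 275 ± 302 CPM in cKO and 0.454 ± 0.326 CPM in WT RVs. For these 3 fibrosis genes the late-dosed mean lay between the other groups. In CPM it was nearer to WT for all 3, but as a fold change the Postn mean was nearer to cKO. Myh7 averaged 6004 ± 3279 CPM in late-dosed, 1589.9 ± 1205 CPM in cKO and 187 ± 84.1 CPM in WT RVs, so that its late-dosed mean was above that of cKO, and Nppa averaged 353 ± 223 CPM in late-dosed, 384 ± 161 CPM in cKO and 67.4 ± 135 CPM in WT RVs. The 12 cardiomyocyte markers summed to 10983 to 35476 CPM in cKO RVs. That was below the 43275 to 63274 CPM of late-dosed and the 37808 to 52706 CPM of WT RVs. The part of this lower sum in the cKO levels of single genes was not tested. A pair of cardiomyocyte genes was likewise lowest in cKO RVs. Atp2a2 averaged 11019 ± 2264 CPM in late-dosed, 2517 ± 1343 CPM in cKO and 10651 ± 1842 CPM in WT RVs, and Dsp 2609.8 ± 333 CPM in late-dosed, 750.1 ± 286 CPM in cKO and 1698 ± 178 CPM in WT RVs.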

How the data were processed

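Bulk RNA-seq of LV and RV had been performed by the study, 1 library per ventricle. The authors quantified reads with Salmon 1.8.0 (build GRCm39 per the labels) and deposited estimated counts (expected counts, not normalised), TPM and effective transcript length per gene. Both poly(A) selection and ribosomal depletion are named for the libraries in the sources used here. Estimated counts were rounded, and 37 mitochondrially encoded genes and 1 row without a name (at most 0.0014% of counts) were left out before library sizes. Levels are CPM after TMM. Groups were compared with edgeR 4.0.16 (R 4.3.3), by glmQLFit and glmQLFTest after filterByExpr, with Benjamini-Hochberg adjustment over all genes tested and a threshold of 0.05. Late-dosed RVs were compared with WT RVs and with early-dosed RVs, and the ventricle by group difference was fitted over 30 libraries. Alternatives used DESeq2 1.42.0, limma 3.58.1, the deposited TPM with a pseudocount of 1 or 0.1, other size factors, no filter, effective length as offsets or covariate, sex as a covariate, and each library left out. The relative effective length of a library is its mean log2 effective length over genes, relative to all libraries. The edgeR comparison of late-dosed with WT RVs was also run on simulated data, and the other steps were not. The members, the 38 gene lists and the alternatives were chosen with earlier results of these data known. The text names Pkp2, the 5 genes that the study measured by RT-qPCR, up to 4 called members of a list with the smallest p-values, the 10 largest rises and falls without overlap at 5 CPM or more, and up to 10 called genes with the smallest p-values in each further comparison. A few genes that this rule names are not reported here. Each animal gave both ventricles, so that the animal number pairs them. Deviations from the group means correlated at -0.082 to 0.28 over 10759 genes between the ventricles of an animal, and were below 0 for RV_5807 and RV_5814. Promoter sequences are from RefSeq (GRCm38.p6) and gene positions from GENCODE (GRCm39).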

Additional observations from a re-analysis of the deposited data

Results flagged for a closer look

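In 24 of 214 groups of libraries examined (each named gene and 3 library measures, in late-dosed and in WT RVs), 1 library lay apart from the rest. The cut-off gives about 1 in 20 groups by chance only if levels are normally distributed and groups independent. The groups reuse the same libraries and normality was not checked, so an excess over chance is not shown. The values that follow are the gap to the nearest library as a share of the group's range. Late-dosed RV_5801 was the highest of its group for Aldh6a1 (0.824), Dsg2 (0.769), Myh6 (0.758), Kcnv2 (0.74), Cox7c (0.663), Atp2a2 (0.65) and Cyp2b10 (0.649) and the lowest for Tgfb2 (0.773). Late-dosed RV_5810 was highest for Itpr2 (0.754) and Pkp2 (0.688), and late-dosed RV_5807 for B2m (0.705). Late-dosed RV_5806 was highest for Sfrp2 (0.751) and lowest for Myoz2 (0.787). WT RV_5819 was highest for Nppa (0.898), the atrial marker sum (0.89) and Myh7 (0.674). WT RV_2004 was highest for Lgals4 (0.71), Ankrd1 (0.531), Myo5c (0.53) and Myh7b (0.494). WT RV_5803 was highest for Col3a1 (0.594) and lowest for Psmd12 (0.57) and Dsp (0.499), and WT RV_2031 highest for Fuca2 (0.501).

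The change of late-dosed over WT animals differed between the ventricles for 57 named genes by edgeR's ventricle by group test (adjusted p under 0.05). Up to 10 of the named genes had been chosen for small p-values in this test. The difference of the log2FCs (RV change minus LV change) was above 0 for 40 genes: Nppb 1.88, Edn3 1.44, Cycs 1.41, Ankrd1 1.35, Xirp2 1.3, Uqcc2 1.27, Tead1 1.26, Fuca2 1.22, Irx5 1.21, Cfl2 1.16, Psmc6 1.13, Tnnc1 1.06, Rnf13 1.06, Psmd12 1.05, Ccng1 1.03, Perp 1, Cox7c 0.986, Col8a1 0.985, Aldh6a1 0.948, Acadsb 0.884, S100a1 0.855, Pja2 0.849, Esrrg 0.845, Hspa4 0.827, Lsm12 0.823, Hspb1 0.82, Cops4 0.819, Pdhx 0.813, Pdlim5 0.796, Tbx20 0.771, Cdh2 0.72, Myom1 0.692, Fstl1 0.687, Gja1 0.685, Pgam1 0.621, Myoz2 0.615, Casq2 0.592, Pgk1 0.541, Dsp 0.524 and Pkm 0.513. It was below 0 for 17 genes: Mdh1 -7.28, Hist2h2aa1 -4.07, Mtl5 -2.32, Myo5c -2.13, Lgals4 -1.95, Clcn1 -1.88, Mhrt -1.84, Myh7b -1.39, Cacna1g -1.1, Esam -1.09, Abcc8 -0.994, Tie1 -0.98, Notch1 -0.874, Itpr2 -0.768, Esrra -0.549, Pecam1 -0.445 and Cacna1c -0.311. Hist2h2aa1 has a near-identical copy, so that its value is uncertain. The RV level of Mdh1 is uncertain as well.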

How the results depend on the processing

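Leaving out 1 library at a time gave 2094 to 2493 higher and 2072 to 2603 lower genes for late-dosed against WT RVs. With the length term the counts were 953 and 895, and 637 and 760 when the libraries RV_5814 and WT RV_5819 were left out as well, an alternative chosen after the data were seen. Genes lower numbered 1388 by limma-trend on log2(TPM + 1), 1375 with a pseudocount of 0.1 and 1264 by an unequal-variance test on log2(TPM + 1). The cause was not tested. The other alternatives for this comparison kept both counts within 1.5 times. Ccna2 turned to -0.13 with the length term and to -0.32 with both libraries left out as well (adjusted p = 0.91 and 0.78). Of the 98 named genes called, 33 did not pass with the length term and 45 with both libraries left out as well; under each other alternative 0 to 4 were lost. The late-dosed against early-dosed counts were 13 higher and 2 lower with the length term, chosen after the data were seen, and ran over 356 to 954 higher and 225 to 892 lower when 1 library was left out. With the animal as a replicate block the ventricle by group test gave 1801 and 1373 genes, and 1731 and 1254 without both ventricles of the animal of RV_5814, and this pairing changed the call of 12 named genes. Few counts limit Spp1, Pak3, Timp1 and Acsm5.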
